A study of Sus scrofa with 8 samples.

Results

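Excitation-contraction coupling is the chain of steps by which an electrical signal on the muscle membrane releases calcium from the sarcoplasmic reticulum and starts contraction. The voltage sensor of skeletal muscle is a calcium channel in the T-tubule membrane, built around CACNA1S with the beta subunit CACNB1 and the adaptor STAC3. Junctophilin 1 (JPH1) holds the T-tubule close to the reticulum, calsequestrins (CASQ1 and CASQ2) bind calcium inside the reticulum, sarcalumenin (SRL) is a further calcium-binding protein of its lumen, and the SERCA pumps (ATP2A1 for SERCA1, ATP2A2 for SERCA2) return calcium to the store. In adult mammals CASQ1 and ATP2A1 are known as the forms of fast skeletal muscle, and CASQ2 and ATP2A2 as the forms of heart and slow skeletal muscle, with a version of SERCA2 in most other cells.

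The members were the 10 genes SRL, RYR1, ATP2A1, ATP2A2, CASQ1, CASQ2, CACNA1S, CACNB1, STAC3 and JPH1, taken by the gene name given in the deposited gene list. The names of 9 of these 10 were found among the 21301 genes of the series, and RYR1, the calcium release channel itself, was not analysed here. They were followed through single-cell RNA sequencing of pig embryos, in which 8 libraries covered somites at E16, E18 and E21 and myotomes at E28, in Tibetan pigs (ZZ) and in DurocxTibetan pigs (DZ). Each stage and breed had 1 library, made from 5 pooled embryos of the same sow, so that the spread between libraries is not a spread between single embryos, and breed, sow and library cannot be told apart within a stage. E28 differed from the earlier stages in tissue as well as age, and both E16 libraries were counted with another release of the counting software than the other 6.

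The libraries held 90688 barcodes, and 74147 cells were kept, with 39852689 to 57568895 unique molecular identifiers (UMIs) per library. E16-ZZ stood apart, since 39.2% of its barcodes exceeded the mitochondrial limit of 10%, against 1.05% to 9.15% in the other libraries. Any 2 libraries shared 23 to 49 barcode sequences. Single cells were assigned by marker genes: skeletal-gated cells had at least 3 of MYOG, MYMK, MYH3, CHRNA1, TNNT3, TNNC2 and MYL1, and cardiac-gated cells had at least 2 of MYBPC3, NKX2-5, NPPB and TNNI3 together with at least 5 UMIs of shared sarcomere genes. Skeletal-gated cells numbered 50 in ZZ and 86 in DZ at E18. Their number was 204 (ZZ) and 193 (DZ) at E21 and 378 and 811 at E28, and 1 such cell was found at E16. Cardiac-gated cells numbered 65 and 199 at E16 and 48 and 21 at E18, with 0 at E21 and E28, so that cardiac cells were seen only in the early libraries. The labels name somite and myotome, not heart. No cell met both gates.

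The gates were set by marker genes, so the sums of those markers in their own gate are a description and no check of identity. The 4 cardiac markers summed to 1665 to 3926 CPM (UMIs of a gene per 1000000 UMIs of the summed cells) in cardiac-gated cells and to 0.642 to 4.43 CPM in skeletal-gated cells, where NPPB was at 0. The 7 skeletal markers summed to 3734 to 9316 CPM in skeletal-gated cells and to 34.2 to 82.5 CPM in cardiac-gated cells, where MYOG and CHRNA1 were at 0. The epithelial list, in which 5 of 6 genes were present and which includes the broadly used keratins KRT8 and KRT18, summed to 2259 to 2953 CPM in the cardiac-gated cells, and the connective tissue list summed to 218 to 1596 CPM in the skeletal-gated cells. The part of these lists in the results was not tested.

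The sequences shown are the 250 bases before the RefSeq gene start (Sscrofa11.1) of the 2 calsequestrins, whose levels ran opposite in the 2 gates, and of SRL, which shared the course of CASQ2 in skeletal-gated cells. Capitals mark the E-box CANNTG, the letters bound by myogenic basic helix-loop-helix factors among others, and in CASQ2 the 10-base MEF2 motif. All are written 5′ to 3′ on the strand of the gene.
CASQ1, chr4:90288991-90289240, minus strand: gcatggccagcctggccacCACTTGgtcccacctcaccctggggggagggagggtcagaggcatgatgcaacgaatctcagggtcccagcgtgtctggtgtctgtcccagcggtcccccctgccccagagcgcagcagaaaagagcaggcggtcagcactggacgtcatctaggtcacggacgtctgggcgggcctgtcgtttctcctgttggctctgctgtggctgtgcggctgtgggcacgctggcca
CASQ2, chr4:104917954-104918203, plus strand: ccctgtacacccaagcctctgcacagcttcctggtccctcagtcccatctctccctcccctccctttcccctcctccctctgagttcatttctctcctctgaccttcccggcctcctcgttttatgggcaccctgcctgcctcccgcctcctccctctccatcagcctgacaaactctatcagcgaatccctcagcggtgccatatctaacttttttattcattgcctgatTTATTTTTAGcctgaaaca
SRL, chr3:38073129-38073378, plus strand: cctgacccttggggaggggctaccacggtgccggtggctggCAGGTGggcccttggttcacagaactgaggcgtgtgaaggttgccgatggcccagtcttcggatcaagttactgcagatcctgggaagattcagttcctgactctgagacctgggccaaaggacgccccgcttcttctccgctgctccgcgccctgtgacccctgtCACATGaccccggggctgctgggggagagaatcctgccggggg
Among 19556 such windows of protein-coding genes, 61.9% held CANNTG and 2.55% held the MEF2 motif, each counted on both strands. CASQ1 had 1 CANNTG and SRL had 2. CASQ2 had 0 CANNTG and the MEF2 motif starting 19 bases before the gene start. Of the windows of all 10 listed members 6 held CANNTG and 1, that of CASQ2, held the MEF2 motif, and nothing is read from so few windows. These are matches of letters in a short window and do not show binding.

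The deposited gene list gives the members as SRL (ENSSSCG00000007949), ATP2A1 (ENSSSCG00000007805), ATP2A2 (ENSSSCG00000034386), CASQ1 (ENSSSCG00000006390), CASQ2 (ENSSSCG00000006745), CACNA1S (ENSSSCG00000024784), CACNB1 (ENSSSCG00000017510), STAC3 (ENSSSCG00000029471) and JPH1 (ENSSSCG00000006174). In the RefSeq annotation of Sscrofa11.1 CASQ1 lies at chr4:90276752-90288990 and CASQ2 on the same chromosome at chr4:104918204-104984019. SRL lies at chr3:38073379-38111936 and ATP2A1 at chr3:18545064-18568312. ATP2A2 lies at chr14:31674659-31744981, CACNA1S at chr10:23503701-23567797, CACNB1 at chr12:23038185-23060504, STAC3 at chr5:22549008-22556330 and JPH1 at chr4:61628304-61716550. None of the 9 overlapped another annotated gene on its own strand. ATP2A1, ATP2A2 and JPH1 each overlapped a gene on the other strand.

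The first question was where in the embryo these genes were expressed. In skeletal-gated cells all 9 members had UMIs. With all libraries pooled, SRL, ATP2A1, CASQ2, CACNA1S and STAC3 had 75.3% to 89.0% of their UMIs there. These cells were 2.32% of the kept cells. SRL was the most concentrated, with 1478 of its 1661 UMIs (89.0%) in the skeletal gate. CACNB1 had 22.6%, JPH1 11.9%, ATP2A2 6.17% and CASQ1 3.03% of their UMIs in the same cells. At E18 (ZZ, DZ) the skeletal gate held 36 of 47 and 30 of 40 SRL UMIs, and 94 of 122 and 63 of 80 of ATP2A1. It held 6 of 10 and 4 of 7 of CACNA1S, 4 of 12 and 4 of 15 of STAC3. Of CASQ2 it held 8 of 49 and 21 of 30, and 39 CASQ2 UMIs of E18-ZZ lay outside the muscle gates. With all libraries pooled, cells outside the muscle gates held 83.5% of the ATP2A2 UMIs, 75.5% of CASQ1, 71.9% of CACNB1 and 60.9% of JPH1. Those cells were 89.9% of the kept cells, so each of these shares lay below the share of cells.

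**Figure D1:**
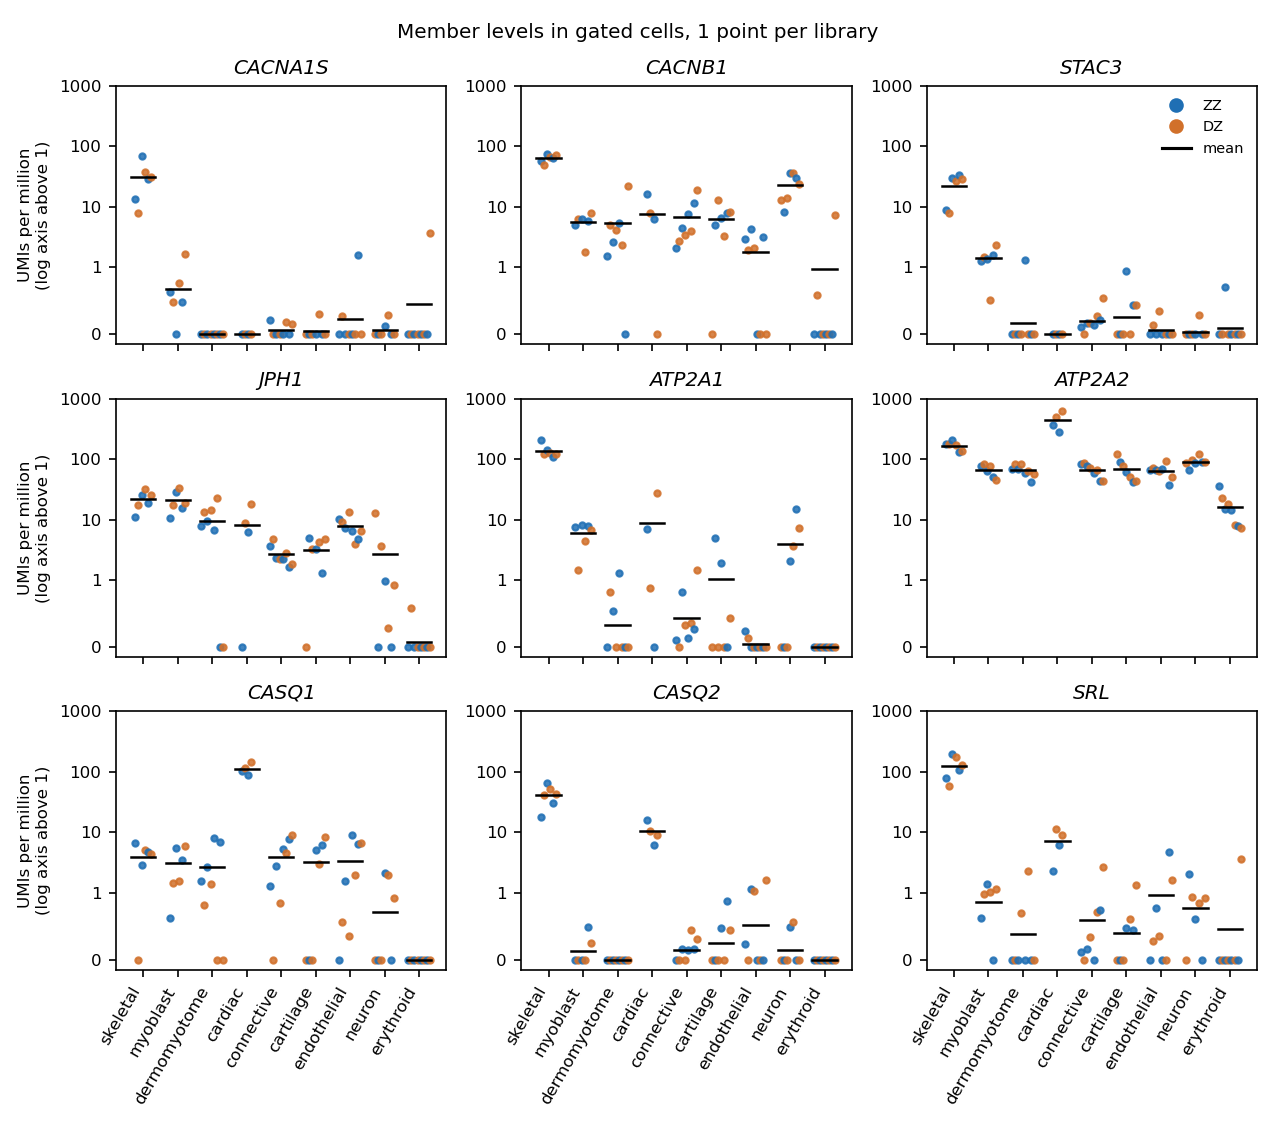
Level of each member in gated cells (y axis, CPM, linear from 0 to 1 and logarithmic above), with 1 point per library of at least 20 cells in that gate, coloured by breed, and a bar at the mean. SRL, CASQ2, CACNA1S and STAC3 stand highest in the skeletal gate, while ATP2A2 and CASQ1 stand highest in the cardiac gate.

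Genes of the voltage sensor were high in skeletal-gated cells. CACNA1S, the pore-forming subunit, ranged from 7.80 to 70.5 CPM over the 6 skeletal sums, with a median of 29.7 CPM, and was lowest at E18. In myoblast-gated cells, chosen by PAX7, MYF5, MYOD1, MSC and CDH15, it ranged from 0 to 1.66 CPM, so the sums of the 2 gates did not overlap. STAC3, which brings the channel to the membrane, ranged from 7.80 to 33.8 CPM (median 27.3) in the skeletal gate and from 0.514 to 2.29 CPM in the myoblast gate. CACNB1, the beta subunit, ranged from 48.8 to 74.8 CPM (median 65.7) in the skeletal gate, against 1.80 to 7.90 CPM in the myoblast gate. CACNB1 was not limited to muscle: neuron-gated cells had 23.0 ± 11.6 CPM (SD, n = 7), with 36.2 and 36.5 CPM in the E21 neurons.

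Among the pumps, the 2 SERCA genes had similar levels in skeletal-gated cells. ATP2A1 ranged from 110 to 208 CPM (median 124) in the skeletal gate, with the highest value in E18-ZZ, and from 1.46 to 8.23 CPM in the myoblast gate. ATP2A2 ranged from 130 to 204 CPM (median 173) in the skeletal gate and from 45.6 to 83.0 CPM in the myoblast gate. In the connective tissue, neuron, endothelial and other gates outside muscle ATP2A2 was present throughout, with 65.2 ± 13.04 CPM (SD, n = 8) over all cells outside the muscle gates. ATP2A1 had 0.535 ± 0.499 CPM (SD, n = 8) in the same cells.

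The store proteins divided. SRL ranged from 58.5 to 201 CPM (median 117) in the skeletal gate and from 0 to 1.37 CPM in the myoblast gate. CASQ2 ranged from 17.7 to 65.5 CPM (median 42.2) in the skeletal gate, and in the myoblast gate it was at 0 in 4 of 6 sums, with 5 UMIs in all. CASQ1 ranged from 0 to 6.65 CPM (median 4.53) in the skeletal gate, from 0.625 to 5.86 CPM in the myoblast gate and from 0 to 9.15 CPM in connective tissue cells. Skeletal-gated CASQ1 therefore lay within the range of cells that are not muscle. In connective tissue cells CASQ1 was at 0 to 2.77 CPM in the 4 early libraries and at 4.46 to 9.15 CPM in the 4 late ones.

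JPH1, like CASQ1, did not separate the skeletal and myoblast gates. It ranged from 11.09 to 31.4 CPM (median 21.9) in the skeletal gate and from 10.6 to 33.7 CPM in the myoblast gate, and these ranges overlapped. Dermomyotome-gated cells had 9.35 ± 7.72 CPM (SD, n = 8).

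Against myoblast-gated cells of the same libraries, 4 of the 5 members that passed the filter on low counts in both gates were higher in skeletal-gated cells and none was lower, where 20.2% of the 9174 genes that passed in both gates were called higher. The log2 fold changes were 4.64 ± 0.18 (SE) for ATP2A1, 3.82 ± 0.21 for CACNB1 and 1.62 ± 0.10 for ATP2A2, and the largest adjusted p of these 3 was 1.42e-07 (edgeR's quasi-likelihood test with Benjamini-Hochberg adjustment, used for all such tests). JPH1 gave 0.39 ± 0.13 (adjusted p = 0.0292) and CASQ1 0.45 ± 0.44 (adjusted p = 0.449, not called). The JPH1 call was lost without the filter on low counts, by DESeq2, with 1 fewer skeletal marker, without muscle cells of another class, and without E21-DZ, E28-ZZ or E28-DZ, with log2 fold changes from 0.15 to 0.41.

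CASQ2, SRL, CACNA1S and STAC3 entered this comparison through the skeletal gate alone, since the filter asked for 4.53 CPM in at least 2 sums and none of their myoblast sums reached it. They could be called in no other direction, and their values are a description. CASQ2 had 481 UMIs in the skeletal and 5 in the myoblast sums, a ratio per total UMIs of 214 (exact 95% counting interval 91.0 to 661). The ratio was 164 (106 to 270) for SRL on 20 myoblast UMIs, 40.3 (26.0 to 65.9) for CACNA1S on 21, and 17.4 (12.4 to 24.9) for STAC3 on 39. These intervals cover counting error only and not the spread between libraries. Without the filter, where no level was required in either gate, 7 of 9 members were called higher, these 4 among them, beside 13.3% of 16497 genes. That fit took in every gene with any UMI, so this is not a share over genes of like count. It called 2191 genes higher, beside 2183 of 10444 (20.9%) with the filter.

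Of 45 other pathway genes in the files, 37 were tested in this comparison. Of the 24 that passed the filter in both gates, 9 were higher and 5 lower in skeletal-gated cells (20.2% and 19.5% of all such genes), with a median log2 fold change of 0.30 beside -0.02 over all such genes. Among these the pump regulator gene SLN had the largest change, 3.17 ± 0.39, and was named after its value was seen. Another 10 genes were called higher after passing the filter through the skeletal gate alone, 4 of them junctional and T-tubule genes and 3 voltage sensor subunits, so that their direction follows at least in part from the filter. The 3 largest fitted changes of the 37 were of this kind. The caveolin CAV3 had 580 skeletal and 9 myoblast UMIs, the triadin gene TRDN, which anchors calsequestrin, 548 and 15, and CACNG1, the gamma subunit of the voltage sensor, 181 and 9. Of the release channel and its partners, 1 of the 5 that passed in both gates was lower and none higher, beside 19.5% of all such genes lower. The release channel gene RYR2 is among those called higher after passing through the skeletal gate alone. It is a description, with 241 skeletal and 69 myoblast UMIs.

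The shares of single cells with a UMI were low, since each cell holds few UMIs of these genes. In skeletal-gated cells, whose median depth per library was 4857 to 9268 UMIs, SRL was detected in 16.9% to 41.5%, ATP2A1 in 39.0% to 72.0%, CASQ2 in 9.52% to 24.0% and CACNA1S in 3.49% to 21.6% of cells. Connective tissue cells, with median depths of 3393 to 8526 UMIs, gave 0% to 0.963% for SRL, 0% to 0.681% for ATP2A1, 0% to 0.177% for CASQ2 and 0% to 0.204% for CACNA1S. With every cell thinned to 1500 UMIs, which left out 24 skeletal-gated and 156 connective tissue cells, SRL was detected in 7.41% to 17.3% of skeletal-gated cells and 0% to 0.578% of connective tissue cells. For CASQ1 the skeletal-gated share was 0% to 6.00% (thinned, 0% to 0.990%) and the connective tissue share 0% to 3.23% (thinned, 0% to 1.36%), so CASQ1 detection in skeletal-gated cells did not stand above this background.

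Next, the members were ordered by the level of MYH3, the embryonic myosin heavy chain, within the skeletal gate. MYH3 is itself a gate marker, so these values are a description. Of the 481 CASQ2 UMIs in the bins, 473 came from cells above 10 MYH3 UMIs per 10000, and 3 came from the 901 cells without MYH3. CASQ2 had a mean of 0.320 CPM in cells without MYH3, 2.56 CPM in cells up to 10 and 112 ± 42.5 CPM (SD, n = 6) in cells above 10. CACNA1S went over the same bins from 1.27 through 5.19 to 83.2 ± 50.9 CPM, and SRL from 5.60 through 37.1 to 316 ± 144 CPM. ATP2A1 was already at 86.4 ± 24.4 CPM (SD, n = 5) in cells without MYH3, and stood at 147 ± 23.3 and 171 ± 40.7 CPM in the next bins. ATP2A2 went from 84.6 through 106 to 288 CPM, CACNB1 from 25.6 through 51.8 to 126 CPM, and STAC3 from 11.5 through 26.9 to 38.4 CPM. JPH1 had 16.4, 18.1 and 33.8 CPM. CASQ1 had 1.56, 1.08 and 8.21 ± 4.81 CPM, the last with a range of 0 to 14.0 CPM over libraries, on 31 UMIs. SRL, CASQ2 and CACNA1S thus came almost wholly from the cells richest in MYH3, while ATP2A1 was present in each bin.

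**Figure D2:**
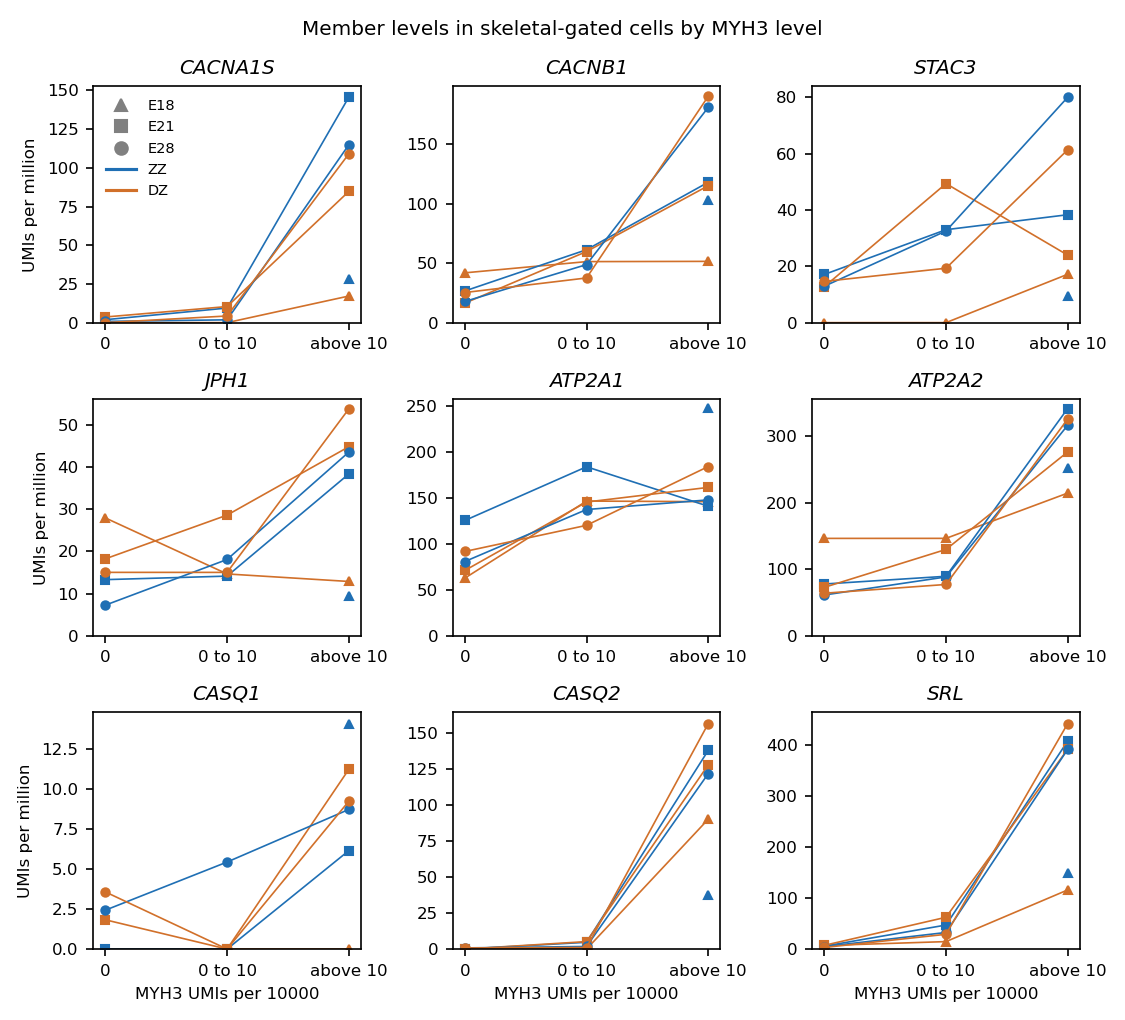
Level of each member (y axis, CPM) in skeletal-gated cells binned by their MYH3 UMIs per 10000 (x axis), with 1 point per library and bin of at least 20 cells, lines joining bins of the same library, marker shape for stage and colour for breed. CASQ2, CACNA1S and SRL lie near 0 in the first bin and highest in the last, while ATP2A1 lies at 62.8 or more in every bin.

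The cardiac-gated cells carried another set. ATP2A2 stood at 367, 502, 283 and 624 CPM in the ZZ and DZ libraries of E16 and then of E18, above the 6 skeletal sums (130 to 204 CPM). CASQ1 stood at 103.1, 115, 90.1 and 145 CPM in the same order, and all 4 were above the 6 skeletal sums (0 to 6.65 CPM). CASQ2 was much lower, at 16.0, 10.5, 6.21 and 9.04 CPM, from 22 UMIs in all. SRL was at 2.29, 11.4, 6.21 and 9.04 CPM. ATP2A1 rested on 7 UMIs, CACNB1 on 18 and JPH1 on 14. CACNA1S and STAC3 had 0 UMIs among 2008548, which allows up to 1.49 CPM, so that the skeletal gate was at least 23.1-fold higher for CACNA1S and at least 18.5-fold higher for STAC3 (bounds from 3 counts over the 4 sums, for counting error only). Without E16-DZ, the largest cardiac sum, the bounds were 10.00-fold and 8.00-fold. Within the E18 libraries alone they were 1.5-fold and 1.2-fold, on 10 and 8 skeletal UMIs.

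Compared with cells outside the muscle gates in the same libraries, CASQ1, ATP2A2 and CACNB1 were the 3 members that passed the filter on both sides, and all 3 were higher in cardiac-gated cells, where 15.3% of the 7807 genes that passed on both sides were called higher. CASQ1 had a log2 fold change of 6.67 ± 0.29 (SE), ATP2A2 2.58 ± 0.11 and CACNB1 1.34 ± 0.51 (adjusted p = 0.0378). CASQ1 and ATP2A2 were called under every alternative, with the largest adjusted p at 4.32e-09 and 7.06e-13. The CACNB1 call was lost under 6 of 16 alternatives, among them the fits without E16-ZZ (0.83) and without E16-DZ (1.48). SRL and CASQ2 entered through the cardiac gate alone and ATP2A1 through the sums of both sides combined. Their values are a description, with a ratio per total UMIs of 82.9 (exact 95% counting interval 40.8 to 166.5) for SRL on 17 cardiac UMIs, 41.2 (23.9 to 69.1) for CASQ2 on 22 and 18.4 (6.94 to 41.9) for ATP2A1 on 7. JPH1 entered through the other cells alone and gave 0.43 ± 0.53 (adjusted p = 0.598, not called). With a mitochondrial limit of 5%, 4 members were tested and 2 were higher, CASQ1 and ATP2A2.

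Of 37 other pathway genes tested in cardiac-gated cells, 23 passed the filter on both sides, and of these 10 were higher, where 15.3% of all such genes were, and 4 were lower, where 17.1% were. Of the 5 voltage sensor genes among them 4 were higher. The sodium-calcium exchanger gene SLC8A1 (5.57 ± 0.18) and the cardiac release channel gene RYR2 (4.77 ± 0.29) had the largest changes. TRDN had a larger fitted value but passed through the cardiac gate alone, on 20 cardiac UMIs.

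Set directly against each other, the 2 gates could be tested in both directions for 1 member. ATP2A2 was lower in skeletal-gated than in cardiac-gated cells by a log2 fold change of -1.40 ± 0.21 (SE, adjusted p = 0.000275), where 15.5% of the 4305 genes that passed the filter in both gates were called lower. The filter asked for 12.1 CPM in at least 4 sums, and the other 8 members met it through 1 gate alone, so their direction follows at least in part from the filter and their values are a description. CASQ1 entered through the cardiac gate, with a ratio of cardiac to skeletal UMIs per total of 25.8 (exact 95% counting interval 18.8 to 36.2). The others entered through the skeletal gate. The ratio of skeletal to cardiac UMIs per total was 36.3 (17.6 to 90.4) for ATP2A1, 15.8 (9.85 to 27.2) for SRL, 7.67 (4.82 to 13.02) for CACNB1, 3.98 (2.60 to 6.41) for CASQ2 and 3.43 (2.01 to 6.36) for JPH1, and for CACNA1S and STAC3 the bounds above stand in place of a ratio. Without the filter all 9 were tested, and 7 were called higher and 2 lower in skeletal-gated cells, beside 8.67% and 8.3% of 15562 genes. These shares again run over every gene with any UMI, and with the filter they were 14.4% and 13.9% of 7166 genes. The skeletal sums came from E18 to E28 and the cardiac sums from E16 and E18, so stage and gate are partly confounded. The fit had no library term, although both E18 libraries gave sums to both gates. With library as a block, which keeps only these 2 libraries, ATP2A2 was called at -1.17. At the 5% mitochondrial limit, which left 8, 80, 26 and 13 cardiac-gated cells in the 4 libraries and so 2 cardiac sums of at least 20 cells, ATP2A2 moved to -0.43 (adjusted p = 0.566). The median mitochondrial share of cardiac-gated cells was 3.12% to 7.65%.

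Of 27 other pathway genes tested between the 2 gates, 15 passed the filter in both, and of these 2 were higher in skeletal-gated cells and 4 lower, where 9.57% and 15.5% of all such genes were. The 2 higher were CACNA2D1, a further voltage sensor subunit (1.89 ± 0.30), and the membrane calcium pump ATP2B1 (1.45 ± 0.26). The release channel gene RYR2 was lower (-1.57 ± 0.30), and these 3 genes were named after their values were seen. The other 12 genes passed through 1 gate alone, and the 8 called higher and 2 called lower among them are a description. The 8 include all 5 junctional and T-tubule genes called higher. The largest fitted differences were those of CAV3, the exchanger gene SLC8A3 and JSRP1, a junctional protein that binds the voltage sensor, all with 0 UMIs in the cardiac gate. Against the floor of 3 counts over the 4 cardiac sums, they were at least 35.2-fold, 24.5-fold and 22.7-fold higher in skeletal-gated cells, and without E16-DZ at least 15.2-fold, 10.6-fold and 9.84-fold. Within the E18 libraries alone the bounds were 5.24-fold, 5.09-fold and 1.95-fold, on 35, 34 and 13 skeletal UMIs. The exchanger SLC8A1, which entered through the cardiac gate and was named after its value was seen, had 439 cardiac and 35 skeletal UMIs.

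Taking each pair of isoforms within a library removes differences in depth. CASQ2 made up 72.7%, 100%, 95.8%, 91.1%, 86.7% and 90.8% of the CASQ1 plus CASQ2 UMIs in skeletal-gated cells, ordered by stage from E18 to E28 with ZZ before DZ. In cardiac-gated cells it made up 13.5%, 8.39%, 6.45% and 5.88% in the same order for E16 and E18, so the gates did not overlap. The widest intervals (exact 95% binomial) were 39.0% to 94.0% for skeletal-gated E18-ZZ, with 11 UMIs, and 0.149% to 28.7% for cardiac-gated E18-DZ, with 17 UMIs. The means were 89.5% ± 9.41 (SD, n = 6) and 8.55% ± 3.45 (SD, n = 4), a difference of 81.0 percentage points (exact two-sided permutation test over libraries, p = 0.00476, the smallest that 210 splits allow). The larger calsequestrin count was thus CASQ2 in every skeletal sum and CASQ1 in every cardiac sum, where the form named above for the adult heart is CASQ2. The 10 sums come from 8 libraries, since both E18 libraries are in both arms, and the arms differ in stage, while the test treats the sums as separate. Within E18 the CASQ2 share was 72.7% in skeletal-gated and 6.45% in cardiac-gated cells of ZZ, and 100% and 5.88% in DZ.

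ATP2A2 made up 46.0%, 59.1%, 59.0%, 57.3%, 54.0% and 53.0% of the SERCA UMIs in the same 6 skeletal sums and 98.2%, 99.8%, 100% and 95.8% in the 4 cardiac sums. The difference was -43.7 percentage points (54.7% ± 4.97, n = 6, against 98.5% ± 1.93, n = 4; exact two-sided permutation test, p = 0.00476, over the same partly shared libraries). Within E18 it was 46.0% in skeletal-gated and 100% in cardiac-gated cells of ZZ, and 59.1% and 95.8% in DZ. UMI counts at transcript ends do not scale with transcript length, so the share compares molecules captured, and capture can differ between the 2 transcripts.

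**Figure D3:**
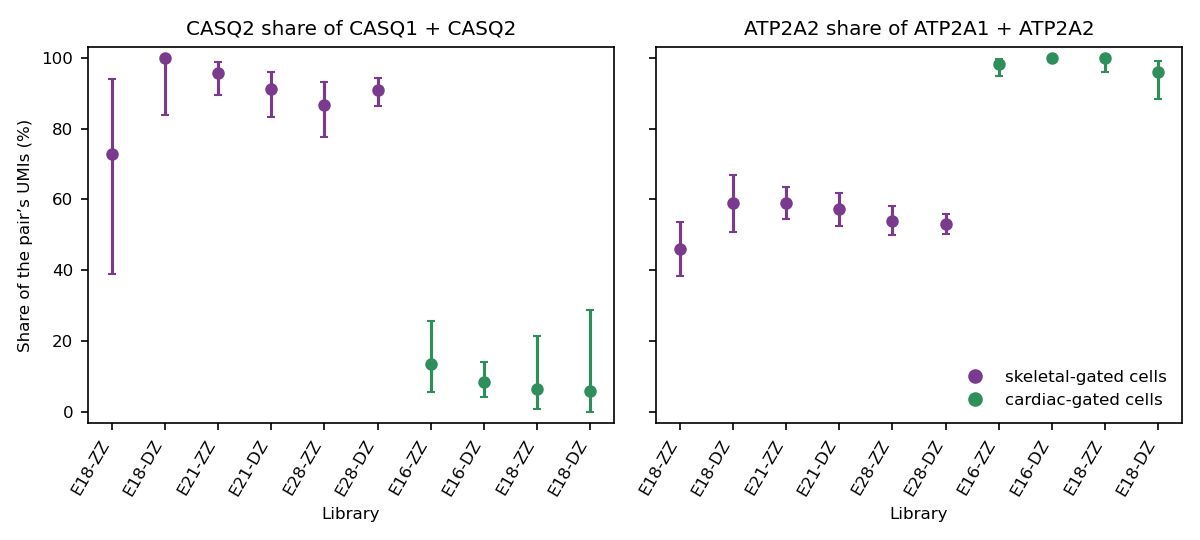
Share of CASQ2 in the CASQ1 plus CASQ2 UMIs (left) and of ATP2A2 in the ATP2A1 plus ATP2A2 UMIs (right), in percent, for each library's skeletal-gated and cardiac-gated cells, with exact 95% binomial intervals as bars. CASQ2 lies at 72.7% to 100% in skeletal-gated and 5.88% to 13.5% in cardiac-gated cells, and ATP2A2 at 46.0% to 59.1% and 95.8% to 100%.

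The gene 3′ of CASQ1 on the same strand, PEA15, starts 610 bases away in the RefSeq annotation, so its levels are given beside those of CASQ1. The counts were made with the Ensembl annotation of release 98, whose gene ends may differ. PEA15 had 149.4 ± 20.9 CPM (SD, n = 4) in cardiac-gated, 77.3 ± 29.6 CPM (n = 6) in skeletal-gated and 101 ± 21.5 CPM (n = 8) in connective tissue cells, and was highest in endothelial cells (297 ± 138 CPM, n = 8), where CASQ1 had 3.29 ± 3.47 CPM. In single cells, CASQ1 was detected in 27.1% to 40.0% of cardiac-gated cells (thinned, 8.06% to 15.8%).

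The genes whose levels ran most like SRL, ATP2A1 and CASQ2 were sought over 81 gate-by-library sums and 13559 genes, by Pearson's r of log2(CPM + 1). Genes listed by an Ensembl identifier alone were passed over, so those given are the nearest with a gene name. Nearest to SRL were MYOZ2 (r = 0.92), CASQ2 (0.92) and KLHL31 (0.92). Nearest to CASQ2 were KLHL31 (0.97), KLHL30 (0.94) and SRL (0.92), and nearest to ATP2A1 were MYPN (0.88), CHRNA1 (0.87) and HJV (0.86). MYOZ2 encodes a Z-disc protein, MYPN a sarcomeric protein and CHRNA1 a subunit of the acetylcholine receptor of muscle. The sums share libraries and include many near 0, and CHRNA1 is a gate marker, so the values are a description.

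Over all kept cells of a library, SRL, ATP2A1, CASQ2, CASQ1 and CACNB1 were higher at the later stages. SRL was at 0.100, 0.278, 0.816 and 0.757 CPM in the early libraries (E16 and then E18, ZZ before DZ) and at 6.72, 6.56, 6.37 and 16.2 CPM in the late ones (E21 and then E28), without overlap. ATP2A1 was at 0.251, 0.104, 2.12 and 1.51 CPM and then at 5.76, 5.25, 7.51 and 16.2 CPM. CASQ2 was at 0.251, 0.243, 0.851 and 0.568 CPM and then at 2.29, 2.07, 1.86 and 5.26 CPM. E28-DZ, with the largest share of skeletal-gated cells (7.40%), had the highest level of each of these 3.

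CASQ1 went from 2.16, 2.92, 2.40 and 1.65 CPM to 4.54, 3.42, 7.35 and 9.43 CPM, also without overlap. ATP2A2, the pump of nearly all cells, went from 71.6, 83.1, 74.3 and 81.5 CPM to 71.1, 74.0, 49.0 and 57.0 CPM, and was lowest at E28. JPH1 stayed between 4.67 and 8.32 CPM.

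**Figure D4:**
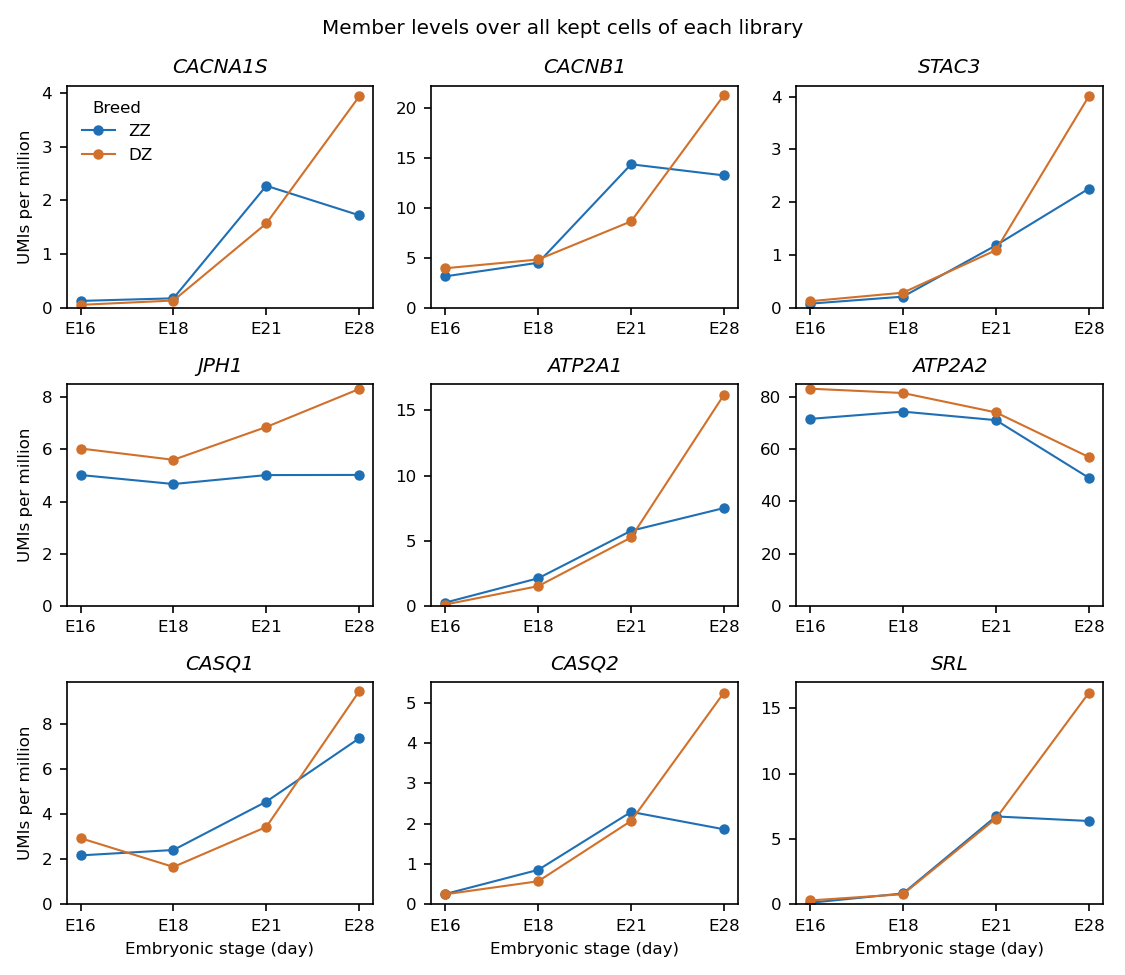
Level of each member over all kept cells (y axis, CPM, each panel on its own scale from 0) at the 4 stages (x axis), with ZZ and DZ libraries as separate lines and 1 library per point. CACNA1S, CACNB1, STAC3, ATP2A1, CASQ1, CASQ2 and SRL are higher at E21 and E28, and E28-DZ is the highest point in each of these panels.

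Late (E21 and E28) against early (E16 and E18) libraries, 5 of the 7 members that passed the filter in both periods were called higher, where 15.6% of 13247 such genes were, and 1 lower, where 17.9% were. The log2 fold changes were 3.96 ± 0.61 (SE) for SRL, 2.96 ± 0.87 for ATP2A1, 2.36 ± 0.53 for CASQ2, 1.62 ± 0.26 for CACNB1 and 1.23 ± 0.37 for CASQ1. CACNA1S and STAC3 passed through the late libraries alone and are a description, with 412 late and 25 early UMIs for CACNA1S and 368 and 37 for STAC3. ATP2A2 was lower, by -0.50 ± 0.15 (adjusted p = 0.0340), and JPH1 gave 0.02 ± 0.19 (adjusted p = 0.943). Without E16-ZZ, E28-ZZ or E28-DZ, SRL, CASQ2 and CACNB1 kept their calls each time. In the same fits ATP2A1 (adjusted p = 0.0692 to 0.0771), ATP2A2 (0.0748 to 0.0912) and CASQ1 (0.0814 to 0.113) lost theirs. Leaving out each other early library ended 2 of these 3 calls as well. In whole libraries the number of cells of a type and the RNA per cell cannot be told apart. Of CASQ1 and CACNB1, 75.5% and 71.9% of the UMIs of all libraries together lay outside the muscle gates. Cardiac-gated cells, absent from the late libraries, held 45 of 86 and 131 of 168 CASQ1 UMIs at E16 (ZZ, DZ). At E18 they held 29 of 138 and 16 of 87. Outside the muscle gates CASQ1 was at 0.636 to 1.88 CPM in the early libraries and 3.57 to 11.2 CPM in the late ones. Skeletal-gated cells went from at most 0.914% of cells in the early libraries to at least 1.95% in the late ones. Of 39 other pathway genes that passed in both periods, 10 were higher and 5 lower. The 3 largest fitted changes came from genes that passed through the late libraries alone, CACNG1 on 207 late and 3 early UMIs (a ratio per total of 81.8, exact 95% counting interval 27.6 to 400.05), JSRP1 on 670 and 38, and ATP1B4 on 136 and 7.

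Within the skeletal gate the course over stages differed between members. Given as ZZ and then DZ of E18, of E21 and of E28, SRL went from 79.8 and 58.5 CPM to 201 and 175 CPM and then to 105 and 128 CPM. CACNA1S went from 13.3 and 7.80 CPM to 70.5 and 37.9 CPM and then to 28.8 and 30.7 CPM. CASQ2 went from 17.7 and 41.0 CPM to 65.5 and 52.6 CPM and then to 30.5 and 43.5 CPM. STAC3 went from 8.87 and 7.80 CPM at E18, on 4 UMIs each, to 29.5 and 26.3 CPM, and stood at 33.8 and 28.3 CPM at E28. JPH1 went from 11.09 and 17.6 CPM to 25.2 and 31.4 CPM and then to 18.6 and 25.6 CPM. SRL, CACNA1S, CASQ2 and JPH1 were highest at E21 in both breeds, and STAC3 did not fall after E21.

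**Figure D5:**
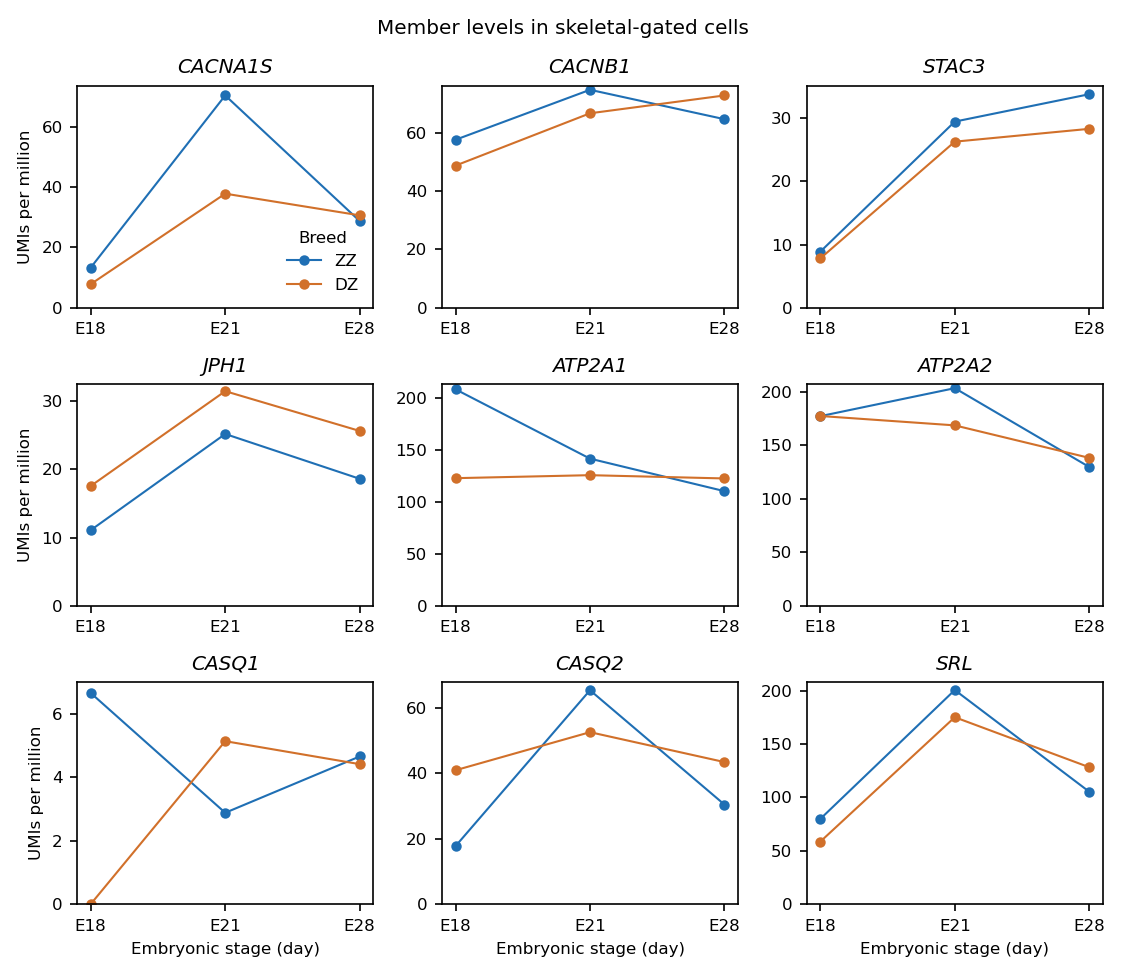
Level of each member in skeletal-gated cells (y axis, CPM, each panel on its own scale from 0) at E18, E21 and E28 (x axis), with 1 library per point and 1 line per breed. SRL, CACNA1S and CASQ2 are highest at E21-ZZ, and ATP2A1 is highest at E18-ZZ.

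Between E28 and E21, 2 of 8 members tested were lower and none was higher in skeletal-gated cells. Of 8832 genes 2.8% were called lower and 1.14% higher. The fit took all 6 skeletal sums with stage as its only term, so the E18 sums helped to set the spread. SRL fell by 0.80 ± 0.18 (SE) on the log2 scale (adjusted p = 0.0184) and CACNA1S by 0.96 ± 0.25 (adjusted p = 0.0423). ATP2A2 gave -0.59 ± 0.17 (adjusted p = 0.0611), CASQ2 -0.77 ± 0.25 (0.0992), ATP2A1 -0.32 ± 0.21 (0.498), JPH1 -0.47 ± 0.28 (0.446), CACNB1 -0.16 ± 0.19 (0.747) and STAC3 0.02 ± 0.25 (0.983), none of them called. The calls rested on 2 libraries per stage, and no member was called without E21-ZZ, without E28-ZZ, without E28-DZ, at the 5% mitochondrial limit or with 1 more marker per gate. Only 1 of the 2 was called without E18-ZZ, without E18-DZ and without E21-DZ. Of 32 other pathway genes tested 1 was called, the reticulum protein gene HRC (-1.10 ± 0.18).

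The make-up of the skeletal gate moved with this comparison. Cells above 10 MYH3 UMIs per 10000 were 38.7% and 35.8% of the gate at E21 and 19.6% and 16.4% at E28, while cells without MYH3 went from 45.1% and 40.4% to 55.6% and 61.7%. Among cells above 10 alone, SRL stood at 408 and 392 CPM at E21 and 392 and 442 CPM at E28. CACNA1S stood there at 146 and 84.7 CPM and then 115 and 109 CPM, and CASQ2 at 138 and 128 CPM and then 122 and 157 CPM. Within these cells all 3 genes were lower at E28 in ZZ and higher at E28 in DZ. These differences, and the part of the make-up of the gate in the fall, were not tested. Over the same cells STAC3 went from 38.3 and 24.0 CPM to 80.0 and 61.4 CPM, and CACNB1 from 118 and 115 CPM to 181 and 190 CPM, on 25, 15, 46 and 80 UMIs for STAC3.

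Breed was compared last. Over whole libraries 0 of 9 members were called between DZ and ZZ, and so were 0% of 15119 genes by edgeR, although 918 genes had an unadjusted p below 0.05. JPH1 was the only member among these 918, with a log2 fold change of 0.41 ± 0.15 (edgeR, adjusted p = 0.810). The member changes ran from -0.05 ± 0.22 for CASQ1 to 0.54 ± 0.30 for SRL. DESeq2 called 57 genes, none of them a member. Each breed had 1 library per stage, and whether differences of this size could be resolved with them was not tested.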

How the data were processed

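The authors deposited gene-by-barcode matrices of raw UMI counts, 1 per library, made by Cell Ranger with droplet 3′ libraries against Sscrofa11.1. Per the submitters' processing notes, the E16 pair was counted with version 3.1.0 and the 6 later libraries with 3.0.2. Such counts do not scale with transcript length, and reads outside the annotated 3′ ends are lost.

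From these counts, cells were kept at 200 genes or more, at most 30000 UMIs and at most 10% of UMIs in the 13 mitochondrial genes. Doublets were removed by Scrublet score, 0.8% of barcodes per 1000, which took out 8247 of 82394 barcodes (its automatic threshold marked 325). Cells were gated by marker genes, and UMIs were summed per gate and library where a gate held at least 20 cells. Cells outside the muscle gates are those in none of the skeletal, cardiac, myoblast and dermomyotome gates. Levels are CPM, UMIs per 1000000 of the sum. Sums were compared with edgeR 4.0.16 (quasi-likelihood test, TMM, filterByExpr), with Benjamini-Hochberg adjustment over all genes tested and a threshold of 0.05. A gene passed the filter in both groups where the sums of each group met it alone, and other genes are described without a test. The SE is the log2 fold change divided by the root of F. Late against early had breed as a covariate and DZ against ZZ had stage. Comparisons of gates within libraries had a library term, and skeletal against cardiac gates had none. E28 against E21 was fitted on the skeletal sums of E18, E21 and E28 with stage alone and no breed term. Isoform shares were compared by exact two-sided permutation over libraries with at least 5 UMIs of the pair. DESeq2 1.42.0, RLE size factors, other filters, other gate sizes and leaving out each library were alternatives. Intervals and floors (3 counts) cover counting error only.

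On data simulated for the late against early comparison (14527 genes), 53.0% of 2-fold and 100% of 4-fold changes were recovered. For the skeletal against cardiac gates (6751 genes) these were 63.8% and 98.8%. Of the calls in these 2 simulations, 5.56% and 5.96% fell on genes that had not been changed. Every gene was drawn with the median dispersion of its comparison, and only genes above a set mean count were changed. The shares therefore need not hold for members that vary more between libraries.

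All members were named. Of the other pathway genes, counts were given with up to 3 genes of large fitted change per comparison. In some comparisons further genes were named after their values were seen, so the genes named are neither a fixed nor a full list. Of like patterns the 3 highest among genes with a gene name were given for SRL, ATP2A1 and CASQ2. The members, gene lists and gates were chosen with earlier results of these data known. Each group had 1 pooled library, so p-values measure the spread between libraries. Upstream windows, positions and motif counts came from the RefSeq annotation of Sscrofa11.1. Upstream sequence is given for CASQ1, CASQ2 and SRL, and other windows are not reported here.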

Additional observations from a re-analysis of the deposited data

Results flagged for a closer look

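Among 34 groups of 4 to 10 library values tested with Dixon's 95% limit, 3 held a library far from the others, where chance gives about 1 in 20 groups. Over all kept cells of the 4 late libraries, SRL stood at 16.2 CPM in E28-DZ, against 6.37 to 6.72 CPM in the other late libraries. CASQ2 stood at 5.26 CPM in E28-DZ, against 1.86 to 2.29 CPM. E28-DZ also had the largest share of skeletal-gated cells (7.40%). Within the skeletal gate, SRL in E28-DZ was 128 CPM and CASQ2 43.5 CPM, inside the range of the other libraries. The part of the share of skeletal-gated cells in the whole-library values was not tested. The third was ATP2A1 in skeletal-gated cells of E18-ZZ, at 208 CPM from 94 UMIs of 50 cells, against 110 to 142 CPM in the other 5 skeletal sums.

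CASQ1 was also found in barcodes that were left out of every comparison. The cardiac-gated barcodes above the mitochondrial limit numbered 106, beside 333 kept, and 86 of them came from E16-ZZ, where they were 57.0% of its cardiac-gated barcodes. They held 28 CASQ1 UMIs, or 62.9 CPM, against 90.1 to 145 CPM in the kept cardiac sums, and 7 CASQ2 UMIs.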

How the results depend on the processing

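Of 137 repeats of the comparisons' counts and shares under other settings, 120 were classed as the same, 16 as moved and 1 as weaker. A count of called members was classed as the same within a set ratio of the main count, so single calls could change. Of 754 repeats of single members, 695 kept both their sign and their status as called or not. Another 52 lost and 2 gained the call, and 5 changed sign, all of these 5 in values that were not called. Leaving out each library in turn gave 5 to 8 members called late against early and 0 to 1 called between E28 and E21. For E28 against E21, 1 member was called by DESeq2, without doublet removal and with 1 fewer skeletal marker, and 0 were called at the 5% mitochondrial limit and with 1 more marker. The late against early counts take in CACNA1S and STAC3, which entered the main fit through the late libraries alone. In the cardiac gate against other cells, CASQ1 and ATP2A2 kept their calls at the 5% limit. For the skeletal against the cardiac gate, ATP2A2 kept its call with library as a block. CACNA1S, STAC3, CASQ2 and JPH1 were not tested in that fit. The other members are not counted there, since each entered the main fit through 1 gate alone. The CASQ2 share difference was 85.5 percentage points at the 5% limit, where 1 cardiac library was left and the smallest p possible was 0.167. JPH1 late against early ran from -0.081 to 0.13 over the fits without 1 library, and changed sign without E18-DZ (-0.081) and without E28-DZ (-0.046). STAC3 between E28 and E21 ran from -0.13 to 0.20, and was -0.019 without doublet removal and -0.065 with 1 fewer marker. The cause of these shifts was not tested. ATP2A2 late against early lost its call at the 5% limit (-0.31, adjusted p = 0.157). No cell met both gates, so assigning such cells changed nothing. The edgeR fit with adjusted deviances was added after seeing the data. Members with few UMIs in the cardiac gate (ATP2A1 with 7) limit what can be said there.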

Other observations

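Skeletal-gated barcodes above the mitochondrial limit, which entered no comparison, numbered 89 and held 225722 UMIs. SRL stood at 908 CPM and ATP2A2 at 700 CPM in their sum, against 58.5 to 201 CPM and 130 to 204 CPM in the kept skeletal sums. CASQ2 stood at 124 CPM (28 UMIs), against 17.7 to 65.5 CPM. CASQ1 stood at 26.6 CPM on 6 UMIs, all from E28-DZ, against 0 to 6.65 CPM in the kept skeletal sums. In the 106 cardiac-gated barcodes above the limit ATP2A2 stood at 351 CPM, below the skeletal-gated sum, whereas among kept cells it was higher in the cardiac gate. Of the skeletal-gated barcodes above the limit 31 came from E28-DZ. The comparison of barcodes above and below the limit was not tested.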
